A study of Saccharomyces cerevisiae with 6 samples.

Results

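The genes for the proteins of the small cytosolic ribosomal subunit of budding yeast, the RPS genes, were followed in an array comparison of zymolyase-treated and control cells. Members were the probe sets whose gene symbol is RPS, a number and an optional A or B, which gave 65 of 5498 Saccharomyces cerevisiae probe sets and 52 of 5449 genes. They hold 7 single-copy genes and 45 genes of duplicated pairs, and for 21 pairs both copies had a probe set. RPS4A, RPS6A and RPS30B were not analysed here. Of the 65 probe sets, 16 have an id ending in _s_at or _x_at, which marks probes that can also bind transcripts of other genes, and these can read the sum of both copies.

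Each of 6 Affymetrix arrays, read in a single colour, held total RNA of cells labelled BY4743. BY4743 is a diploid laboratory strain, MATa/α, and its labelled genotype is his3Δ1 leu2Δ0 met15Δ0 ura3Δ0 lys2Δ0. Cells of both groups had been grown for 2 days at 25 °C in the rich medium YPD, to which 0.01% of the detergent SDS was added. The 3 control samples were not treated with enzyme, and the FastRNA Pro Red kit served to extract their RNA. The 3 zymolyase samples were incubated for 20 min at 25 °C with zymolyase, which digests the glucan of the cell wall, before RNA isolation with the MagExtractor kit. Enzyme and kit changed together and cannot be told apart. The labels do not say whether a group's 3 samples were separate cultures, and the p-values therefore measure a spread between samples that may be technical.

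The values are MAS5 signals, on a scale on which the median S. cerevisiae probe set had a signal of 552.3 to 677.8 by array. The 95th percentile of the probe sets of the array's other yeast species, used as the background, was at most 10.9. On the arrays labelled BY4743, the 4 alpha-specific genes examined had signals of 1485.4 to 7412.3 and the 7 a-specific genes of 8.0 to 133.8, and the 5 genes that the genotype lists as deleted had signals of 370.9 to 5015.1. The mating-type markers thus went against the labelled MATa/α in both groups. The genotype as written does not say whether each listed gene is deleted on both chromosome copies of the diploid. The signals of all 5 genes lay above the background on each array. Whether the strain label is right was not tested. The 3′/5′ signal ratio, as the geometric mean of 8 yeast control genes, was 1.49 to 1.99 on control and 4.57 to 7.21 on zymolyase arrays. By gene, the log2 ratio rose by 0.53 (SPT15) to 2.74 (WBP1). The log2 ratio over the 8 genes averaged 0.85 ± 0.24 on control and 2.60 ± 0.35 on zymolyase arrays (SD, n = 3 each). The difference of 1.74 had an exact two-sided permutation p = 0.1, the smallest that 3 against 3 arrays can give. All results below stand beside this difference in how evenly the transcripts were covered from end to end, and its part in them was not tested.

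The small subunit binds messenger RNA and matches its codons to transfer RNAs. In yeast most of its proteins are encoded by a pair of genes, named A and B, that arose in an ancient duplication of the genome and give the same or nearly the same protein. The transcripts are among the most abundant of growing yeast, and Rap1, Fhl1, Ifh1 and Sfp1 are known to drive their transcription together, under control of the Tor and Sch9 kinases. Several members also limit their own expression through splicing or decay of their own RNA.

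Of the 65 RPS probe sets, 15 were lower and 0 higher on the zymolyase arrays, and 50 did not pass (limma, Benjamini-Hochberg adjusted p under 0.05 over all 5498 probe sets). Over all S. cerevisiae probe sets 20.0% were lower and 22.4% higher, 42.4% in all. The median log2 change, zymolyase minus control, was -0.08 for the RPS probe sets and 0.04 for all. The 15 falls belonged to 14 genes, all of them members of duplicated pairs, and 0 of the 7 single-copy genes passed. Control and zymolyase signals did not overlap for 19 RPS probe sets, or 29.2%, against 52.8% of all probe sets. At an unadjusted p under 0.05 there were 22 of the 65 RPS probe sets and 2816 of all 5498.

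The samples of both groups are numbered 1 to 3. Deviations of same-numbered arrays from their group means correlated at 0.49, 0.20 and 0.40 over all probe sets, and numbers 2 and 3 were only weakly told apart. With the array number as a block in the fit, 26 RPS probe sets were lower and 6 higher, against 27.4% lower and 31.1% higher over all probe sets. After quantile normalization 19 were lower and 7 higher, against 22.8% lower and 21.2% higher over all probe sets, so the count of 0 rises depends on both choices. With a smooth trend on gene length removed, 8 were lower and 1 higher, against 19.2% lower and 18.4% higher over all. The RPS median then took the other sign, at 0.16.

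**Figure D1:**
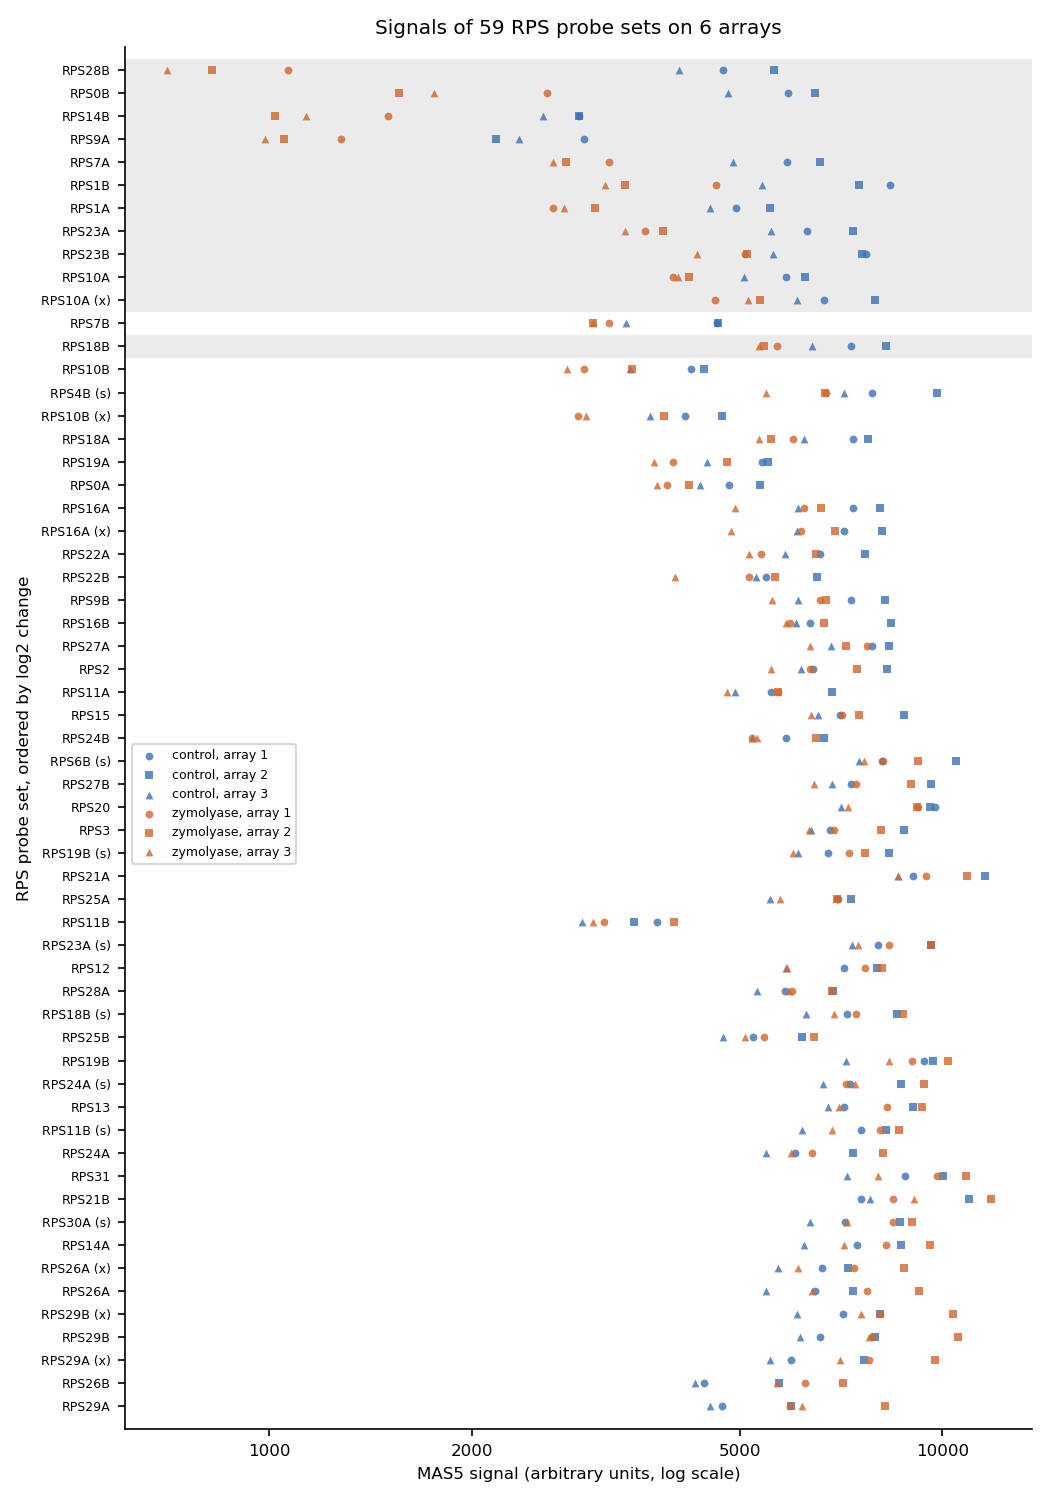
MAS5 signal (log axis) of each of 59 RPS probe sets on the 3 control arrays (blue) and the 3 zymolyase arrays (orange), ordered from the largest fall at the top to the largest rise at the bottom; shaded lines are the 12 of them that were lower, and s or x marks ids ending in _s_at or _x_at. RPS28B at the top gave 4068 to 5632 on control and 704.0 to 1065 on zymolyase arrays, while most lines lower down overlap between the groups.

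The largest fall was that of RPS28B. Rps28 is a small protein of the subunit's head, near the channel by which messenger RNA leaves. RPS28B had signals of 4718, 5632 and 4068 on control arrays 1 to 3 and of 1065, 823.5 and 704.0 on zymolyase arrays 1 to 3. The highest zymolyase value lay far below the lowest control value. The change was 5.59-fold lower (log2 -2.48, SE 0.20, limma adjusted p = 0.000801). Its copy RPS28A had signals of 5843, 6889 and 5301 in control against 5975, 6864 and 5913 in zymolyase arrays, and the groups overlapped. The log2 change of RPS28A was 0.06 (95% interval of the fit -0.27 to 0.40).

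RPS28B is known in yeast as a transcript that the Rps28 protein itself sends to decay, by binding it and recruiting the decapping enhancer Edc3. The EDC3 signal averaged 380 ± 15.6 on control and 1018 ± 179 on zymolyase arrays (SD, n = 3 each) and was 2.65-fold higher (log2 1.41, SE 0.17, limma adjusted p = 0.00111). No link between the 2 transcripts was tested.

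RPS0B and RPS14B followed among the falls. Rps0 lies on the back of the subunit and is needed for its late maturation. RPS0B had signals of 5891, 6467 and 4802 in control against 2583, 1557 and 1759 in zymolyase arrays, without overlap, and fell 2.96-fold (log2 -1.56, SE 0.22, limma adjusted p = 0.00169). Rps14 sits on the platform beside the decoding site and in yeast limits the splicing of RPS14B. RPS14B had signals of 2890, 2885 and 2553 in control against 1501, 1021 and 1134 in zymolyase arrays. These groups did not overlap either, and RPS14B fell 2.31-fold (log2 -1.21, SE 0.17, limma adjusted p = 0.00194).

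The copies RPS0A and RPS14A did not pass. RPS0A had signals of 4819, 5370 and 4370 in control against 3899, 4201 and 3767 in zymolyase arrays, which did not overlap, with a log2 change of -0.29 (SE 0.13, limma adjusted p = 0.114). With the replicate number as a block the adjusted p of RPS0A was 0.0266, with 0.0266 to 0.284 across alternatives. RPS14A had signals of 7472, 8677 and 6238 in control against 8259, 9595 and 7136 in zymolyase arrays, with a log2 change of 0.16 (SE 0.17, limma adjusted p = 0.481).

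RPS9A and RPS7A were the A copies with the largest falls. Rps9 is a protein of the subunit's body at the entry of the messenger RNA channel and binds early in assembly. RPS9A had signals of 2939, 2176 and 2355 in control against 1280, 1051 and 985.0 in zymolyase arrays and fell 2.25-fold (log2 -1.17, SE 0.17, limma adjusted p = 0.00207). Rps7 is a protein of the body that eukaryotes have and bacteria lack. RPS7A had signals of 5886, 6573 and 4891 in control against 3202, 2765 and 2637 in zymolyase arrays and fell 2.01-fold (log2 -1.01, SE 0.16, limma adjusted p = 0.00247). In neither gene did the groups overlap. The copy RPS9B had a log2 change of -0.19 (SE 0.15, limma adjusted p = 0.349). RPS7B had one of -0.44 (SE 0.16, limma adjusted p = 0.0572), with signals of 4633, 4643 and 3389 in control against 3201, 3026 and 3029 in zymolyase arrays, and it passed with the block (adjusted p = 0.0176, with 0.0176 to 0.311 across alternatives). These 5 probe sets, of RPS28B, RPS0B, RPS14B, RPS9A and RPS7A, were the RPS falls of at least 2-fold.

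In 3 pairs both copies fell, and RPS1 and RPS23 were among them. Rps1 lies on the platform near the exit of the messenger RNA channel. RPS1A had signals of 4941, 5547 and 4514 in control against 2637, 3053 and 2744 in zymolyase arrays and fell 1.78-fold, and RPS1B had signals of 8369, 7533 and 5397 in control against 4615, 3374 and 3153 in zymolyase arrays and fell 1.91-fold. Both genes kept the groups apart. Their log2 changes were -0.83 (SE 0.14, limma adjusted p = 0.00307) and -0.93 (SE 0.21, limma adjusted p = 0.0102). The call of RPS1B was lost with the length trend removed.

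Rps23 lies at the decoding centre and is known for its part in the accuracy of translation. RPS23A had signals of 6302, 7368 and 5565 in control against 3618, 3852 and 3374 in zymolyase arrays by its plain-id probe set, without overlap. It fell 1.76-fold (log2 -0.82, SE 0.15, limma adjusted p = 0.00391). RPS23B had signals of 7698, 7590.0 and 5596 in control against 5098, 5127 and 4321 in zymolyase arrays. It fell by 0.51 on the log2 scale (SE 0.17, limma adjusted p = 0.0387), and that call was lost in 9 of 16 alternatives, among them the fits without control array 1 or 2 or without any of the 3 zymolyase arrays.

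RPS10A and RPS18B, both for head proteins, fell less. RPS10A, for a protein near the entry of the messenger RNA channel, fell by 0.48 and 0.45 on the log2 scale at its 2 probe sets (SE 0.13 and 0.15, limma adjusted p = 0.0197 and 0.0392). RPS18B fell by 0.41 (SE 0.14, limma adjusted p = 0.0427) by its plain-id probe set, from 7310, 8253 and 6397 to 5689, 5429 and 5340. The call of RPS18B was lost in 9 of the 15 alternatives that tested it, that of the RPS10A probe set with an _x_at id in 9 of 16, and that of the other RPS10A probe set in 6 of 15. For all 3, these included the fits without control array 1 or 2 and without zymolyase array 3.

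By place in the subunit, a grouping made after the values were seen, 5 of 29 probe sets for head proteins and 10 of 36 for proteins of the body and platform were lower. Over all 5498 S. cerevisiae probe sets 20.0% were lower. The median log2 changes were -0.04 and -0.10. No difference between the places was tested.

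Whether the A and the B copy of a pair changed differently was tested on the log2 signal of A minus that of B on each array, over all 57 gene pairs of the table whose symbols differ by a final A or B. Of the 21 RPS pairs, 6 passed (limma, adjusted p under 0.05 over the 57 pairs), and 40.4% of the 57 did so. With the replicate block 7 RPS pairs passed, and 43.9% of the 57. In 3 of the 6, RPS28, RPS14 and RPS0, the B copy had the lower change, and in RPS9, RPS7 and RPS19 the A copy. In each of the 6 the 3 control ratios lay apart from the 3 zymolyase ratios, with an exact permutation p = 0.1, the smallest possible. All 6 passed in each of the 13 alternatives that were run.

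**Figure D2:**
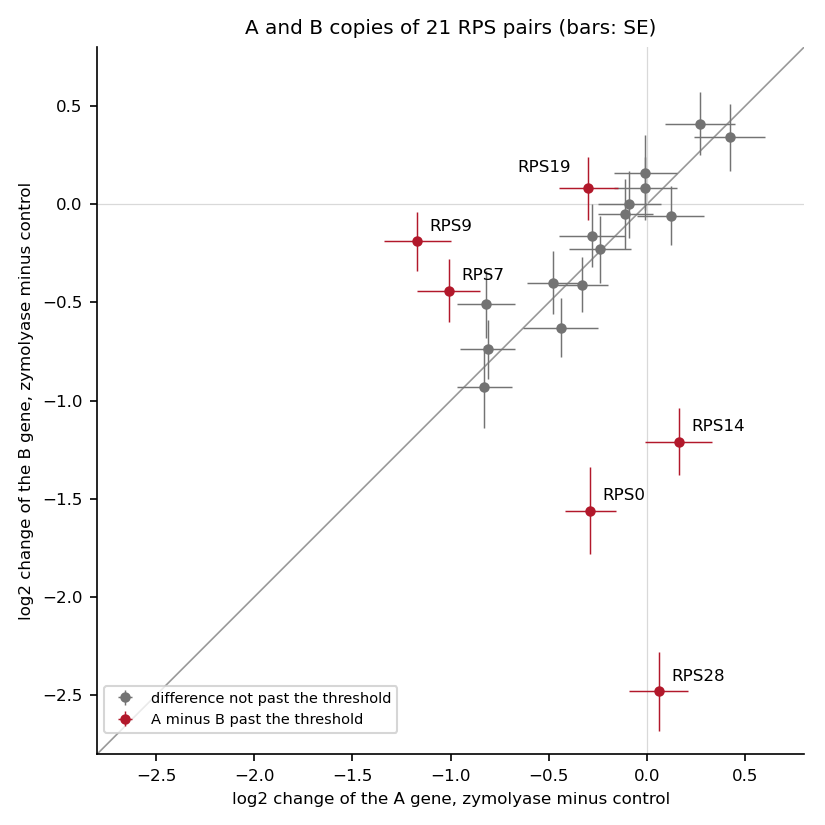
Log2 change (zymolyase minus control, with SE) of the A gene on the x axis and of the B gene on the y axis for the 21 RPS pairs, with the line of equal change; red points are the 6 pairs whose A minus B difference passed. RPS28, RPS14 and RPS0 lie below the line, with B changes of -2.48, -1.21 and -1.56, and RPS9, RPS7 and RPS19 lie above it.

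The RPS28 pair parted most. The log2 signal of RPS28A minus RPS28B was 0.31, 0.29 and 0.38 on control arrays 1 to 3, and 2.49, 3.06 and 3.07 on zymolyase arrays 1 to 3. The A minus B difference in change was 2.55 (SE 0.17, limma adjusted p = 0.000262), so the ratio of A to B signal was 5.84 times as high in zymolyase as in control arrays. The 2 probe sets are different, so a ratio on a given array does not give the relative amounts of the 2 transcripts. A shift of the ratio between groups does not depend on the brightness of the probes where both respond in proportion.

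For RPS14 the log2 ratio of A to B was 1.37, 1.59 and 1.29 in control against 2.46, 3.23 and 2.65 in zymolyase arrays. The shift was 1.37 (SE 0.21, limma adjusted p = 0.00479). For RPS0 the ratio was -0.29, -0.27 and -0.14 in control against 0.59, 1.43 and 1.10 in zymolyase arrays, a shift of 1.27 (SE 0.21, limma adjusted p = 0.00544). The brighter signal of the RPS0 pair was thus that of B in control against that of A in zymolyase arrays.

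For RPS9 the log2 ratio was -1.32, -1.92 and -1.38 in control against -2.36, -2.67 and -2.50 in zymolyase arrays, a shift of -0.98 (SE 0.18, limma adjusted p = 0.00667). For RPS7 it was 0.35, 0.50 and 0.53 in control against 0.00, -0.13 and -0.20 in zymolyase arrays, a shift of -0.57 (SE 0.09, limma adjusted p = 0.00517). Rps19 is a head protein whose human counterpart is mutated in Diamond-Blackfan anaemia. For RPS19 the ratio was -0.80, -0.81 and -0.69 in control against -1.18, -1.09 and -1.16 in zymolyase arrays, a shift of -0.38 (SE 0.07, limma adjusted p = 0.00707), although neither RPS19A (log2 change -0.30, limma adjusted p = 0.146) nor RPS19B (0.08, limma adjusted p = 0.727) passed alone. RPS19A passed with the block (adjusted p = 0.0276, with 0.0276 to 0.859 across alternatives).

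**Figure D3:**
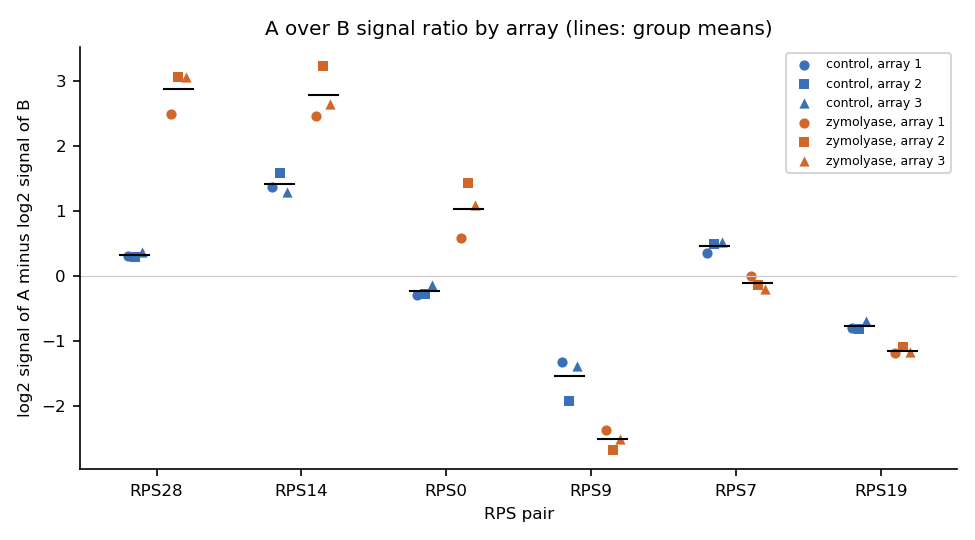
Log2 signal of the A gene minus that of the B gene on each array, for the 6 RPS pairs that passed; blue points are control arrays, orange points zymolyase arrays, marker shapes the array numbers and black lines the group means. RPS28 goes from 0.29 to 0.38 in control up to 2.49 to 3.07 in zymolyase arrays, and in all 6 pairs the groups do not overlap.

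The other 15 RPS pairs did not pass. RPS23 came closest, with an A minus B difference of -0.31 (SE 0.10, limma adjusted p = 0.0504), and it passed with the replicate block (adjusted p = 0.0324, with 0.0104 to 0.183 across alternatives). For RPS18 the difference was 0.08 with a 95% interval of -0.09 to 0.25. RPS29 had a difference of 0.08 (-0.08 to 0.24) and RPS22, whose B copy holds an intron in its leader, -0.01 (-0.25 to 0.24). For RPS1 it was 0.10 with a wide interval of -0.43 to 0.63. Where a gene had several probe sets, its brightest plain-id probe set was used. With the brightest one whatever its id, 10 of the 21 RPS pairs passed, and 27 of the 57 (47.4%).

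Some probe sets of the same gene did not move together. RPS genes with 2 probe sets numbered 13. In 4 of them the second probe set, which had an _s_at id each time, differed from the plain-id one (limma on the log2 signal of one minus the other, over all 49 such comparisons of the table, of which 30.6% passed). This test was added after the values were seen. For RPS23A the log2 change was 0.03 at the shared probe set and -0.82 at the plain one, a difference of 0.85 (SE 0.07, limma adjusted p = 0.00177).

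For RPS18B the values were 0.07 and -0.41, a difference of 0.48 (SE 0.11, limma adjusted p = 0.0331). The copies of these genes, read by plain-id probe sets of their own, had log2 changes of -0.51 for RPS23B and -0.33 for RPS18A. Both shared probe sets lay above the values of both copies, so the falls of RPS18B and RPS23A hold for the plain-id probe sets and not for the shared ones. Which transcripts, and which stretch of them, each probe set reads is not given in the sources used here.

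**Figure D4:**
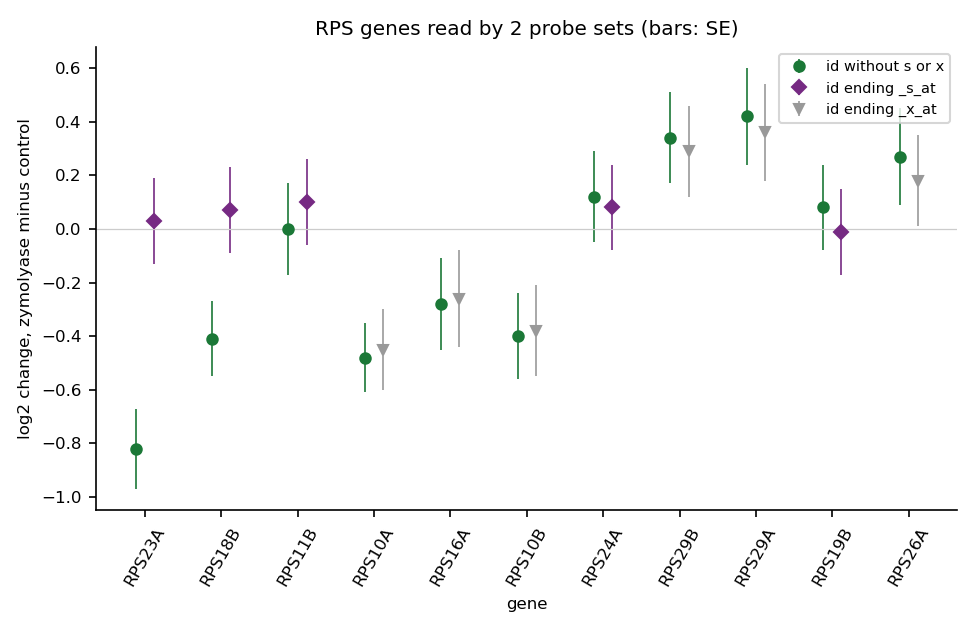
Log2 change (zymolyase minus control, with SE) of 11 RPS genes read by 2 probe sets, the plain-id probe set as a green circle and the other as a purple diamond (_s_at) or grey triangle (_x_at). For RPS23A and RPS18B the circles lie at -0.82 and -0.41 and the diamonds at 0.03 and 0.07, and for the other 9 genes the 2 markers lie within 0.10 of each other.

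Over all RPS probe sets, 14 of 49 with a plain id were lower, with a median log2 change of -0.16 and a range of -2.48 to 0.42. Of the 16 with an _s_at or _x_at id 1 was lower, with a median of 0.05 and a range of -0.45 to 0.36. The share lower over all S. cerevisiae probe sets was 20.0%. In the other 9 genes with 2 probe sets the differences ran from -0.09 to 0.10 and none passed (limma), RPS10A, RPS10B, RPS16A, RPS26A, RPS29A and RPS29B with _x_at ids among them. For RPS4B, RPS6B and RPS30A an _s_at probe set was the gene's sole reading, with log2 changes of -0.39, -0.05 and 0.16 (limma adjusted p = 0.0874, 0.809 and 0.448). RPS4B passed with the block (adjusted p = 0.009, with 0.00378 to 0.298 across alternatives).

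The log2 changes of the 7 single-copy genes ran from -0.10 to 0.14, 0 of 7 passed (limma) or reached an unadjusted p under 0.05, and control and zymolyase signals overlapped for each. RPS3, for a protein at the entry of the messenger RNA channel, had signals of 6808, 8760 and 6381 in control against 6896, 8110.0 and 6331 in zymolyase arrays. Its change was -0.03 (95% interval -0.42 to 0.35). RPS31, which encodes ubiquitin fused to a head protein, had a change of 0.14 (-0.26 to 0.54).

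RPS2, RPS13 and RPS15, for proteins of the channel entry, the body and the head, had changes of -0.10 (-0.50 to 0.29), 0.10 (-0.28 to 0.48) and -0.08 (-0.43 to 0.27). RPS12 and RPS20, both for head proteins, had changes of 0.04 and -0.04. Over the 7 genes the intervals ran from 0.707 to 1.45 times the control signal. RPS20 gave the brightest signal of any probe set on control array 1, at 9758.8, and RPS21A reached 11563 on control array 2, so several RPS probe sets lay near the top of the scale. The deposited values hold no mark for saturated probes, and its part was not tested.

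The largest positive changes of the members were those of RPS26 and RPS29, though other members, such as RPS14A (0.16), also had changes above 0. Rps26 lies at the exit of the messenger RNA channel, and Rps29 is a zinc-binding head protein. RPS26B had signals of 4428, 5712 and 4293 in control against 6256, 7124 and 5683 in zymolyase arrays, with a log2 change of 0.41 (SE 0.16, limma adjusted p = 0.0745). RPS29A had signals of 4701, 5956 and 4514 in control against 5932, 8215 and 6185 in zymolyase arrays by its plain-id probe set, with a change of 0.42 (SE 0.18, limma adjusted p = 0.0927). The groups overlapped in both.

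Within each array number, however, both were higher on the zymolyase array. With the number as a block they passed, RPS26B at an adjusted p of 0.00608 (0.00272 to 0.36 over the alternatives) and RPS29A at 0.00476 (0.00446 to 0.374). The other 4 probe sets that passed with the block were those of RPS26A with a plain id (change 0.27), of RPS29A with an _x_at id (0.36), and both of RPS29B (0.34 and 0.29). The same genes made up the 7 rises after quantile normalization, where the second probe set of RPS26A also passed (log2 change 0.18 on the deposited scale).

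The RPS probe sets shared the differences between arrays of a group. Control array 2 gave the highest control signal for 59 of the 65 probe sets, and control array 3 the lowest for 63. Zymolyase array 2 gave the highest zymolyase signal for 47, and zymolyase array 3 the lowest for 54. The median RPS deviation from the group mean was -0.01, 0.21 and -0.19 on control arrays 1 to 3 and 0.01, 0.16 and -0.16 on zymolyase arrays 1 to 3 (log2). The median over all probe sets, most of them dimmer, lay between -0.04 and 0.03 on the same arrays. The highest signal of any probe set was 9758.8, 11777.6 and 9427.6 on control arrays 1 to 3. On zymolyase arrays 1 to 3 it was 10887.8, 13660.0 and 10867.2, so the top of the scale also peaked on the arrays numbered 2. Whether other bright probe sets shared the RPS deviations was not tested.

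**Figure D5:**
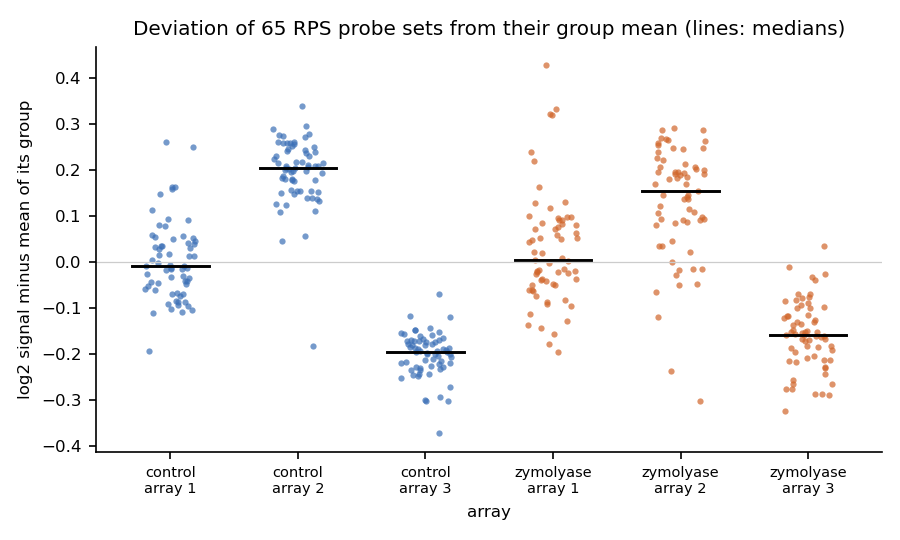
Log2 signal of each of the 65 RPS probe sets minus the mean of its group, by array, with black lines at the medians. The medians run from 0.21 on control array 2 to -0.19 on control array 3 and from 0.16 on zymolyase array 2 to -0.16 on zymolyase array 3, so most RPS probe sets moved together between arrays of the same group.

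Leaving out single arrays shifted the median of the members. The median RPS change was 0.03 without control array 2 and -0.18 without control array 3, against -0.08 with all arrays. Without zymolyase array 3 the number of RPS falls was 10 in place of 15. Paired by number, the median RPS change was -0.06, -0.19 and -0.05 in pairs 1 to 3. In 31 of the 65 probe sets the zymolyase array was lower in all 3 pairs and in 19 higher in all 3, against 35.7% and 40.6% of all probe sets.

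Position and length were the only further features at hand, since no sequence of a member was used here. RPS14B, which fell, and RPS22A, with a log2 change of -0.24 (SE 0.16, limma adjusted p = 0.256), are neighbours on their chromosome, the sole adjacent RPS genes of the NCBI gene table. RPS22A passed with the block (adjusted p = 0.0372, with 0.0372 to 0.966 across alternatives). Across the 65 probe sets, which share arrays and partly genes, Spearman's rho between the log2 change and the gene's length from start to end was -0.39. Among the RPS probe sets the longer genes thus tended to have the lower changes, while across all 5498 probe sets rho was 0.33. This length includes introns, which many RPS genes hold and few other yeast genes do, and 24 of the 52 RPS genes had a length that is not a multiple of 3.

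Of 10 regulators of ribosomal protein genes 4 were higher, 1 was lower and 5 did not pass, with a median log2 change of 0.44. Over all S. cerevisiae probe sets 22.4% were higher and 20.0% lower. SFP1, an activator of ribosomal protein and ribosome assembly genes, had signals of 716.3, 572.2 and 658.5 in control against 225.2, 109.8 and 138.0 in zymolyase arrays. It fell 4.29-fold (log2 -2.10, SE 0.27, limma adjusted p = 0.00125). TOR2 and TOR1, for the kinases that tie ribosome synthesis to nutrients, were 2.10-fold and 1.57-fold higher (log2 1.07 and 0.65, limma adjusted p = 0.00109 and 0.00807). RAP1, for the general activator bound at these promoters, was 1.39-fold higher (limma adjusted p = 0.0401), and RPD3, for a histone deacetylase recruited when Tor is inactive, 1.55-fold higher (limma adjusted p = 0.016). FHL1, for the factor that holds Ifh1 at the promoters, had a change of 0.12, and IFH1 one of 0.40 (limma adjusted p = 0.671 and 0.153). IFH1 passed with the block (adjusted p = 0.0417).

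Of 8 chaperones and late assembly partners of single small-subunit proteins, LTV1 and NOB1 were higher, at log2 1.21 and 1.11 (limma adjusted p = 0.0317 and 0.0129), and 6 did not pass. The share higher over all probe sets was 22.4%. Ltv1 helps to place Rps3 and its neighbours, and Nob1 is the nuclease that makes the final cut of the small-subunit RNA. With the block 4 were higher and 1, TSR2, for the chaperone of Rps26, was lower (adjusted p = 0.0171). The shares over all probe sets were then 31.1% higher and 27.4% lower. ASC1, for the head-bound scaffold protein of the small subunit that the symbol rule leaves out, had a change of -0.49 (SE 0.18, limma adjusted p = 0.0621) and was lower with the block (adjusted p = 0.00518). STM1, for a factor that clamps idle ribosomes, was 1.42-fold lower (limma adjusted p = 0.0475).

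The large-subunit RPL genes gave similar counts. Of 77 RPL probe sets 18 were lower and 0 higher, with a median log2 change of -0.13, and of 64 with a plain id 17 were lower. Over all S. cerevisiae probe sets 20.0% were lower and 22.4% higher. With the block 26 RPL probe sets were lower and 7 higher, against 27.4% and 31.1% of all probe sets. Of 9 probe sets of MRPS genes, for proteins of the small mitochondrial ribosomal subunit, 3 were lower and 2 higher without the block, with a median of -0.01. No difference between these lists and the RPS genes was tested.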

How the data were processed

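Per the labels, total RNA of 3 control and 3 zymolyase samples was labelled from about 4 µg per sample and hybridised to single-colour arrays. The authors deposited signal intensity, not logged, computed with MAS5 per the submitters' processing notes. Its version and settings, and detection calls, were not used here. The trimmed mean lay between 500.2 and 500.3 on each array, so the arrays had been scaled. No genome build entered the signals, and no coordinates are given. Gene lengths and neighbours came from the NCBI gene table.

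Probe sets were named by the platform's annotation, with symbols renewed by gene identifier from NCBI's R64 table: of 10928 probe sets 5498 had a single S. cerevisiae symbol. Log2 signals were fitted with limma 3.58.1 in R 4.3.3 (eBayes with an intensity trend), adjusted over all 5498 probe sets, threshold 0.05. The A minus B and same-gene fits used eBayes without a trend. Members, lists and the rule for the genes named were chosen with earlier results of these data known. The rule took the 8 largest falls and rises that passed, and pairs that passed or split in direction. It also took genes whose probe sets differed in call, and single-copy genes. RPS9, RPS14, RPS22, RPS26, RPS28 and RPS31 came from a list made for autoregulation, decay or a fusion known from textbooks. A few members that entered every fit and count are not reported here by name. Other members were named after their values were seen. The fit was tested on simulated data with independent noise for each probe set and array. That setting left out differences shared by many probe sets of an array, so the test does not cover them.

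Deviations of same-numbered arrays from their group means correlated across probe sets at 0.49, 0.20 and 0.40, each above 0.1. On that ground, not the labels' wording, same-numbered samples were treated as pairs in the replicate block and the changes paired by number. The main fits did not pair them. As the pairing was taken from the same values that the block fit used, the p-values with the block can be too low. Differently numbered arrays correlated from -0.43 to 0.23, and control 2 with zymolyase 3 (0.23) and control 3 with zymolyase 2 (0.21) as closely as the second pair, so the data set numbers 2 and 3 apart only weakly. Alternatives were 2 other scalings, log2(signal + 16), a filter on dim probe sets, no trend, the replicate block, leaving out arrays, other choices of probe sets and pairs (named genes only, added after the values were seen) and a length trend (loess, span 0.5). The number of arrays limits the precision.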

Additional observations from a re-analysis of the deposited data

How the results depend on the processing

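Of 16 alternatives, each of the 15 RPS falls kept its sign in those that tested its probe set. The alternative with 1 probe set per gene left out some of them, and for RPS23A and RPS18B it took the shared probe set, with changes of 0.03 and 0.07. Of the falls 8 kept their call in each alternative that tested them, and 10 kept it without any single array. RPS probe sets lower numbered 26 with the replicate block and 8 with the length trend removed, and 10 to 17 without single arrays. RPS probe sets higher numbered 6 with the replicate block, 7 after quantile normalization, 1 with the length trend removed, and 0 to 1 without single arrays (1 without control array 2). With the block, calls named in the results changed only where its adjusted p stands beside them or where a rise is given for RPS26 or RPS29; RPS10B, RPS16A and RPS18A were among those that also became lower. RPS pairs that differed numbered 10 with the brightest probe set of each gene, and 6 to 7 in the other alternatives. The prior without a trend was already the main choice for the pairs. Over all probe sets, centring on the median lowered each change by 0.16 and gave 959 higher and 1477 lower, against 1229 and 1100.

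Changes near 0 took the other sign in places. The median RPS change was 0.16 with the length trend removed, and -0.18 to 0.03 without single arrays. With the length trend removed RPS2 was 0.18, RPS3 0.27, RPS15 0.17, RPS20 0.16 and RPS22B 0.00. After median centring RPS12 was -0.12, RPS13 -0.06, RPS31 -0.02, RPS28A -0.10, RPS19B -0.08 and the shared probe sets of RPS18B -0.09 and RPS23A -0.13. After quantile normalization the shared probe set of RPS23A was -0.02. The cause of these moves was not tested. Without single arrays the changes crossed 0 for RPS2 (-0.22 to 0.03), RPS3 (-0.13 to 0.10), RPS12 (-0.08 to 0.19), RPS15 (-0.17 to 0.04), RPS20 (-0.19 to 0.08), RPS19B (-0.06 to 0.15) and RPS28A (-0.02 to 0.16). They did so too for the shared probe sets of RPS18B (-0.04 to 0.19) and RPS23A (-0.07 to 0.14). The 3′/5′ difference was 1.61 to 1.95 without single arrays.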
